A study of Rattus norvegicus with 10 samples.

Results

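The Stac family is a set of small cytoplasmic adaptor proteins with 3 members, encoded by Stac, Stac2 and Stac3. They were taken by gene name from the 30560 rows of a table of estimated counts in rat dorsal root ganglia, which house the cell bodies of the sensory neurons of the body. Each name had 1 row: Stac (ENSRNOG00000008865), Stac2 (ENSRNOG00000004805) and Stac3 (ENSRNOG00000008050). The family was chosen by the p-value of Stac2, the smallest of all genes between treated and control ganglia. The values of that contrast are therefore given here as a description of the members, with no test.

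Sprague Dawley rats aged 7 to 8 weeks were fitted with a lumbar intrathecal catheter, and L6 ganglia were taken. Of the 10 libraries, 5 came from rats given phosphate-buffered saline (PBS, 0 mg) and 5 from rats that received SCN9A_2544, a divalent siRNA directed at the sodium channel gene Scn9a, at 0.75 mg. Every animal of both groups had surgery, isoflurane and sustained-release meloxicam, was dosed in 30 to 45 µL 5 days after surgery, and has a labelled timepoint of 14 days, from surgery or from dosing not being said. No group given an siRNA of another sequence was analysed here, so effects of this sequence and of siRNA dosing in general cannot be told apart. Whether each sample is 1 animal is not stated in the sources used here, so spreads between samples may be partly technical.

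Stac proteins hold a cysteine-rich C1 domain and SH3 domains and bind L-type voltage-gated calcium channels, on which they slow calcium-dependent inactivation. Stac3 is the skeletal muscle member, required for the coupling of the channel Cav1.1 to calcium release, while Stac and Stac2 are expressed in neurons, including separate subsets of dorsal root ganglion neurons.

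Depth was 11832376 to 15420006 estimated counts a library, and 15186 genes had enough counts to be tested. Levels are CPM, counts scaled to library size with TMM, and differences are log2 fold changes of SCN9A_2544 over PBS from edgeR. The 10 genes listed as defining sensory ganglion neurons, such as Prph, Isl1 and Avil, were all tested, at a summed 1660 to 4110 CPM over the libraries. Scn9a ranged over 132 to 257 CPM in PBS libraries and over 44.6 to 103 CPM in treated ones. Its log2 difference was -1.03 (SE 0.25, edgeR adjusted p = 0.963). edgeR's quasi-likelihood test called 0 genes (0.0% of those tested) at an adjusted p of 0.05, with 642 (4.23%) at an unadjusted p under 0.05, while DESeq2 called 12 (0.079%) and limma voom with library weights called 1. The 3 libraries lowest in pan-neuronal genes were PBS replicates 3 and 5 and SCN9A_2544 replicate 3.

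Stac2 was low in every PBS ganglion and higher in every treated one. PBS replicates 1 to 5 held 2.40, 1.40, 1.69, 1.45 and 1.07 CPM, from 35, 21, 24, 17 and 16 estimated counts. SCN9A_2544 replicates 1 to 5 held 13.6, 4.28, 14.7, 39.0 and 11.5 CPM, from 187, 63, 216, 620 and 170 estimated counts. The groups did not overlap: the lowest treated library, replicate 2, was 1.78 times the highest PBS library, replicate 1. All treated libraries lay above all PBS libraries for 69 tested genes (0.454%), Stac2 among them.

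Stac2 averaged 1.60 ± 0.50 CPM under PBS against 16.6 ± 13.2 CPM under SCN9A_2544 (SD, n = 5 each), a ratio of means of 10.4. On the log2 scale the difference was 3.37 (SE 0.51), and 2 tested genes had a larger one. The spread among treated ganglia was wide, with a 9.11-fold range from replicate 2 to replicate 4 and a coefficient of variation of 79.2%, against 31.2% in PBS. Without SCN9A_2544 replicate 4, the highest library, the treated range was 3.43-fold, the coefficient of variation 42.6% and the log2 difference 2.78 (SE 0.37).

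**Figure D1:**
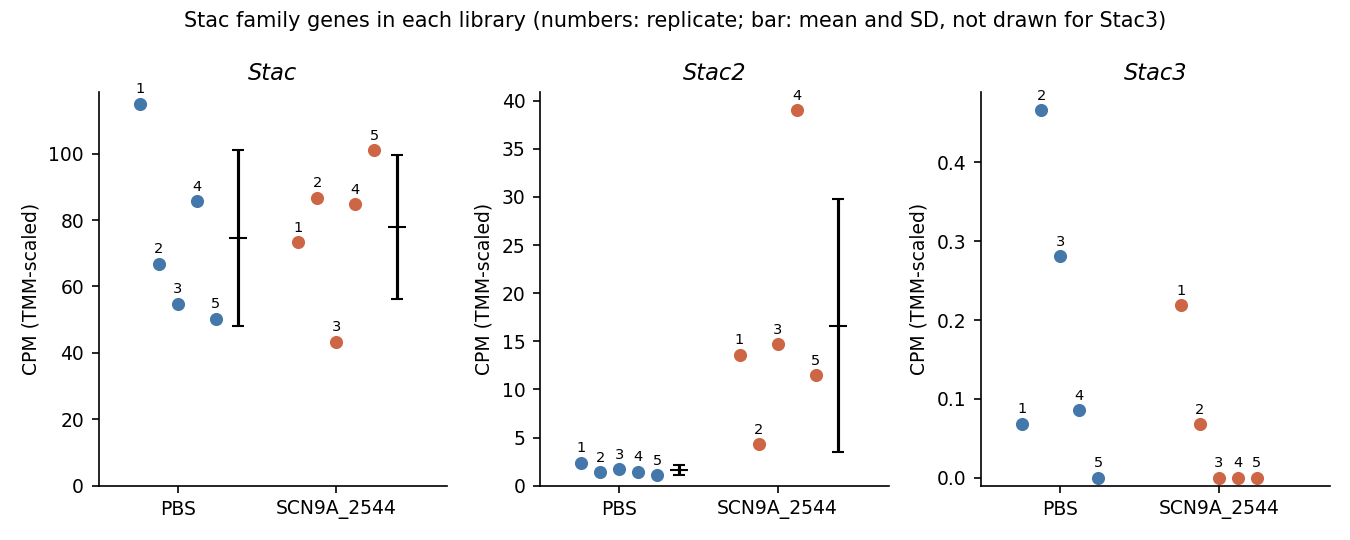
Levels of the Stac family genes in each library, in TMM-scaled CPM on linear axes, with 1 point per library numbered by replicate and the mean and SD beside each group (not drawn for Stac3). Stac overlaps between groups, Stac2 runs from 1.07 to 2.40 CPM in PBS and from 4.28 to 39.0 CPM in treated libraries, and Stac3 stays under 0.5 CPM.

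Stac showed no such difference between groups. PBS replicates 1 to 5 held 115, 66.9, 54.8, 85.7 and 50.3 CPM. SCN9A_2544 replicates 1 to 5 held 73.4, 86.8, 43.4, 84.8 and 101 CPM. The groups overlapped along nearly their whole range, the highest library being PBS replicate 1 and the lowest SCN9A_2544 replicate 3. Means were 74.6 ± 26.5 CPM under PBS and 77.8 ± 21.5 CPM under SCN9A_2544 (SD, n = 5 each), and the log2 difference was 0.06 (SE 0.26), smaller than its error.

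RefSeq promoter sequences matched 2 of the 3 members, Stac and Stac3, each running from 250 bases before to 50 bases after the gene's start. That of Stac, the member present in every library at 43.4 CPM or more, is from GRCr8, minus strand, chr8:120531271-120531570, with each CG dinucleotide in capitals. This stretch held 28 CG dinucleotides and 68.0% G and C, against medians of 7 and 51.7% over the 33469 promoters of the table, 87.3% of which had fewer CG.
Stac: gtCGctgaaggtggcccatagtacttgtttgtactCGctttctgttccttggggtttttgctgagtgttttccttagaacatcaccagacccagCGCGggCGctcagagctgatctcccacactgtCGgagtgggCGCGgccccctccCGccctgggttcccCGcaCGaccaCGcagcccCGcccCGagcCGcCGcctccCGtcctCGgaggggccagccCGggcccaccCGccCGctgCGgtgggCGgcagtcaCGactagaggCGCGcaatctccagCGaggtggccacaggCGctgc

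Levels of Stac followed the neuronal content of the library. Its log2 CPM correlated over the 10 libraries with the mean of 20 pan-neuronal genes (Pearson r = 0.89, permutation p = 0.00055, adjusted over 12 relations 0.00348; Spearman rho = 0.81, permutation p = 0.00697, adjusted 0.0167). Deviations from the group means gave r = 0.89 as well. Without the 2 libraries farthest from the median of the neuronal mean, r was 0.80 (exact permutation p = 0.0175, adjusted 0.0834). Over the 7 libraries other than the 3 of lowest neuronal content, a choice made after seeing the data, r was 0.49 (exact permutation p = 0.271), so the relation rests largely on those 3 libraries. In bulk tissue, fewer neurons and less RNA per neuron cannot be told apart.

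Among the kinds of sensory neuron, Stac correlated with the peptidergic nociceptor markers such as Calca and Trpv1 (r = 0.81, permutation p = 0.00403, adjusted 0.00967; rho = 0.82, permutation p = 0.00569, adjusted 0.0167). The value for non-peptidergic nociceptor markers such as P2rx3 and Mrgprd was r = 0.82 (permutation p = 0.0038, adjusted 0.00967; rho = 0.88, permutation p = 0.00149, adjusted 0.0167). Markers of large-diameter mechanoreceptors and proprioceptors such as Ntrk3 gave r = 0.49 (permutation p = 0.147, adjusted 0.196; rho = 0.47, permutation p = 0.178, adjusted 0.237). Whether these 3 values differ from each other was not tested. Without the 2 libraries farthest from the median of each score they were 0.92, 0.71 and 0.12, with exact permutation p-values of 0.00104, 0.0491 and 0.762 and adjusted p-values of 0.0125, 0.118 and 0.831, so the non-peptidergic call was lost. Without SCN9A_2544 replicate 3 the peptidergic r was 0.71 (permutation p adjusted 0.0537), and over the 7 libraries it was 0.46 (exact permutation p = 0.285), so that call was lost too.

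The general list of sensory ganglion identity genes gave r = 0.79 (permutation p = 0.00744, adjusted 0.0149; rho = 0.72, permutation p = 0.0225, adjusted 0.0402) and 0.65 without 2 libraries (exact permutation p = 0.0802, adjusted 0.16). Stac ran against Schwann cell and myelin genes, r = -0.88 (permutation p = 0.00116, adjusted 0.00464; rho = -0.82, permutation p = 0.00567, adjusted 0.0167) and -0.78 without 2 libraries (exact permutation p = 0.0228, adjusted 0.0834). Endothelial markers gave r = -0.86 (permutation p = 0.00058, adjusted 0.00348; rho = -0.84, permutation p = 0.00356, adjusted 0.0167), again -0.78 without 2 libraries (exact permutation p = 0.0278, adjusted 0.0834). Fibroblast markers gave r = -0.70 (permutation p = 0.0239, adjusted 0.041; rho = -0.72, permutation p = 0.0234, adjusted 0.0402), and -0.44 without 2 libraries (exact permutation p = 0.283, adjusted 0.443). All 4 calls were lost without the 2 libraries.

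Relations with the other 4 lists did not pass an adjusted p of 0.05. Of 8 central glia markers only 2, Gfap and Aldh1l1, were tested and entered the score. They gave r = -0.65 (permutation p = 0.0442, adjusted 0.0664; rho = -0.65, permutation p = 0.0484, adjusted 0.0726). Satellite glia gave r = -0.33 (permutation p = 0.35, adjusted 0.42; rho = -0.26, permutation p = 0.469, adjusted 0.47). For macrophages r was -0.23 (permutation p = 0.52, adjusted 0.567; rho = -0.26, permutation p = 0.47, adjusted 0.47) and for skeletal muscle it was -0.17 (permutation p = 0.641, adjusted 0.641; rho = -0.35, permutation p = 0.332, adjusted 0.398). Without 2 libraries these 4 r values were -0.34, -0.42, -0.07 and -0.21, with exact permutation p-values of 0.412, 0.295, 0.872 and 0.621.

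Scaling to neuronal content narrowed the spread of Stac within each group. Set against the pan-neuronal mean of the same library, the log2 SD of Stac went from 0.49 to 0.24 in PBS and from 0.47 to 0.26 in treated libraries, and its group difference became 0.0. The within-group SDs of Stac2 went from 0.39 to 0.51 and from 1.12 to 1.37, and its group difference on that scale was 2.90. These group differences are differences of mean log2 values, not edgeR estimates, and are not set against edgeR's. SCN9A_2544 replicate 3, the library poorest in neuronal transcripts, held the lowest Stac and the second highest Stac2 of all 10. When edgeR was given that neuronal mean as a covariate, the log2 differences were 0.01 (SE 0.13) for Stac and 3.37 (SE 0.51) for Stac2. The 2 genes had r = 0.12 over the 10 libraries, given as a description.

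**Figure D2:**
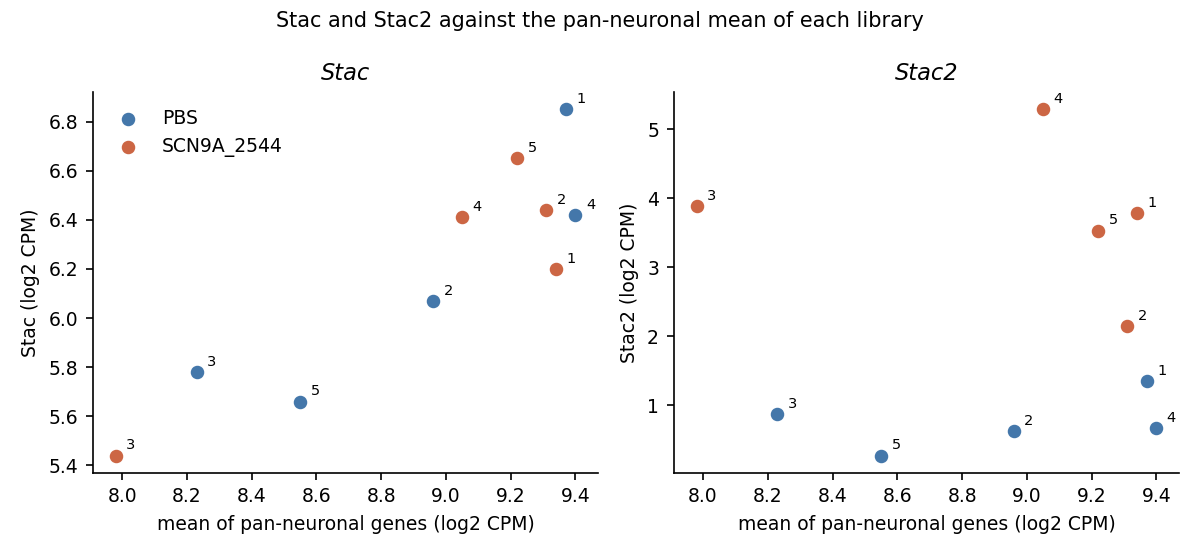
Log2 CPM of Stac and of Stac2 (vertical axes) against the mean log2 CPM of 20 pan-neuronal genes (horizontal axes), with 1 point per library numbered by replicate. Stac climbs with the pan-neuronal mean in both groups, with r = 0.89, whereas the treated libraries lie above the PBS libraries for Stac2 at low and high neuronal content.

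The genes whose pattern over the 10 libraries was most like that of Stac were Bex1 (r = 0.99), Rhov (0.98), Tspan7 (0.97), Tfg (0.97), Tmem199 (0.97) and Gna14 (0.97). They were the first 6 of 13732 tested genes with a symbol, ranked by Pearson r with no test. Their own correlations with the pan-neuronal mean lay between 0.83 and 0.93, and their log2 differences between groups lay between -0.01 and 0.04. Bex1 encodes a small brain-expressed adaptor and Gna14 a G protein alpha subunit, and Tspan7 is a tetraspanin of neurons.

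Stac3 was almost absent. PBS replicates 1 to 5 gave 1, 7, 4, 1 and 0 estimated counts, and SCN9A_2544 replicates 1 to 5 gave 3, 1, 0, 0 and 0. The sums were 13 in PBS (exact Poisson 95% interval 6.92 to 22.2) and 4 in treated ganglia (1.09 to 10.2), intervals that overlap and cover counting error only. The highest library, PBS replicate 2, reached 0.466 CPM, and in a library with no count 3 counts would have stood at 0.189 to 0.204 CPM. With 17 counts in all, Stac3 did not pass the filter on low counts, so 2 of the 3 members were in the fit and no fold is given for it.

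The few Stac3 counts lay mostly in the libraries with the most skeletal muscle transcripts, which were present in all 10. The 4 libraries with the highest mean of muscle genes held 15 of the 17 counts (88.2%): SCN9A_2544 replicate 1, PBS replicate 2, SCN9A_2544 replicate 2 and PBS replicate 3, with muscle means of 3.49, 2.97, 2.56 and 2.50 log2 CPM. The other 6 libraries had muscle means of 1.26 to 1.64. Of the 13 tested muscle genes, 6 were higher in each of these 4 libraries than in any of the other 6 libraries. The 4 libraries were chosen by the mean of these same 13 genes, so separation of some of them follows from that choice. Creatine kinase of muscle, Ckm, stood at 25.7, 11.8, 10.1 and 8.92 CPM in the former and between 1.16 and 2.73 CPM in the latter. Skeletal actin, Acta1, stood at 26.6, 24.7, 11.4 and 10.9 CPM in the 4 libraries and between 3.47 and 8.31 CPM in the others. Ckm and Acta1 were picked after their values were seen. Myh4, the myosin heavy chain gene of fast fibres, also separated, at 3.16 to 21.7 against 0.272 to 1.58 CPM. The other 3 muscle genes of smallest p between treated and PBS did not separate. Myh7, the slow myosin heavy chain gene, stood at 2.19 CPM in SCN9A_2544 replicate 1, below the 4.87 CPM of PBS replicate 5. Eno3, a muscle enolase gene, stood at 11.8 to 17.6 against 9.34 to 20.1 CPM, and the nebulin gene Neb at 9.66 to 19.2 against 6.58 to 12.4 CPM. Of 20 muscle genes 19 had a row and 13 were tested, their summed level being 49.0 to 147 CPM in PBS and 50.2 to 183 CPM in treated libraries, and 0 were at zero in all libraries. Their part in the Stac3 counts was not tested.

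**Figure D3:**
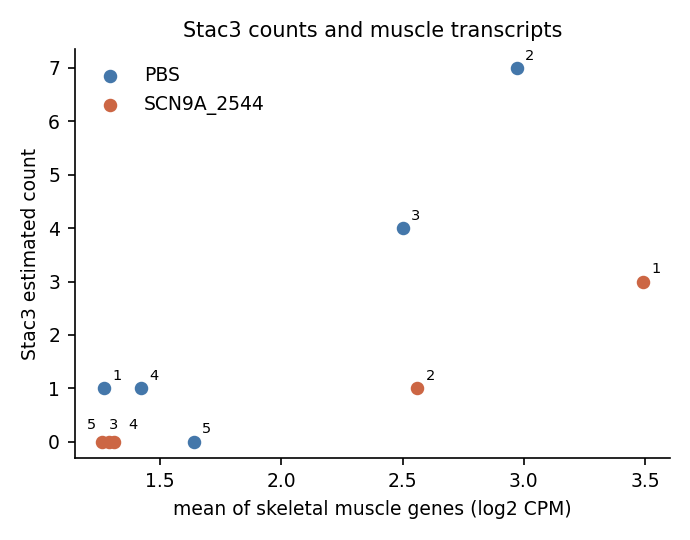
Estimated counts of Stac3 (vertical axis) against the mean log2 CPM of the tested skeletal muscle genes (horizontal axis), with 1 point per library numbered by replicate. The libraries with 3 or more Stac3 counts all have a muscle mean of 2.50 or more, and those with a muscle mean of 1.64 or less have 0 or 1.

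The Stac3 promoter is shown as that of the muscle member, from GRCr8, plus strand, chr7:65228225-65228524, with matches to CAGCTG in capitals. This E-box, which reads the same on both strands, is a form bound by the myogenic transcription factors. It occurred 2 times in Stac3, starting 21 and 9 bases before the gene's start, and 0 times in Stac. Among all promoters listed, 15.1% held at least 1 match and 1.69% held 2 or more. The AP-1 motif TGACTCA and the cAMP response motif TGACGTCA, searched on both strands, had 0 matches in either member and occurred in 4.63% and 1.83% of promoters. The stretch held 3 CG dinucleotides and 54.0% G and C.
Stac3: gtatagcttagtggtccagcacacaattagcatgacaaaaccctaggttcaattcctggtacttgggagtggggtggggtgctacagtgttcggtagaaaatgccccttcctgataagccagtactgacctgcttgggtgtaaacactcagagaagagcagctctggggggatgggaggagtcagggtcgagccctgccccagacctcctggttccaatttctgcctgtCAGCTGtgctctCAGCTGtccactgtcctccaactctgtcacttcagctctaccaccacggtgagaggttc

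Voltage-gated calcium channels include the L-type channels that Stac proteins bind, and no tested gene of a channel subunit of any type passed the test. Of 26 subunit genes all had a row and 21 were tested, the L-type pore genes Cacna1s and Cacna1f being among the 5 that were not, and 0 were called higher or lower by edgeR, by DESeq2 or by limma voom, with 0 at an unadjusted p under 0.05. Their log2 differences ran from -0.22 to 0.84 with a median of 0.20, against 0.02 over all tested genes, and 18 of the 21 lay above 0, as did 53.4% of all tested genes. All 8 tested pore genes lay above 0, the farthest at 0.43. Of the 10 sensory ganglion identity genes 9 lay above 0 (median 0.21), and of the 20 pan-neuronal genes 13 did (median 0.01). Whether the channel list differs from these lists was not tested. Over all tested genes edgeR called 0 too, DESeq2 called 0.079% and limma voom called 1 gene. An unadjusted edgeR p under 0.05 was reached by 4.23% of them, so the 0 calls do not set the channel genes apart.

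Cacna1c, encoding the L-type channel Cav1.2, which Stac proteins bind, stood at 43.8 ± 14.8 CPM under PBS and 44.2 ± 11.2 CPM under SCN9A_2544 (SD, n = 5 each). Its log2 difference was 0.02 (SE 0.24), and the sign turned in 10 of 18 alternative settings. Cacna1d, encoding Cav1.3, stood at 10.3 ± 2.84 and 12.0 ± 4.69 CPM, a log2 difference of 0.21 (SE 0.29). Cacna1s, the muscle channel gene and partner of Stac3, held 70 counts over the 10 libraries and did not pass the filter, at 0.211 to 1.06 CPM in PBS and 0.0681 to 0.729 CPM in treated libraries. Cacna1f, another L-type pore gene, did not pass either, with 11 counts in PBS and 41 in treated libraries. It stood at 0.0667 to 0.342 and 0.189 to 0.816 CPM, with 4 treated libraries above every PBS library. The fitted differences of Cacna1c and Cacna1d were smaller than their standard errors.

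Among the other tested subunits, Cacna2d1, an alpha2delta subunit known to be induced in injured sensory neurons, had the largest difference, 0.84 (SE 0.46, edgeR adjusted p = 0.963). It stood at 19.1, 22.3, 7.38, 21.4 and 14.1 CPM in PBS replicates 1 to 5 and at 42.9, 26.5, 5.24, 39.8 and 36.4 CPM in SCN9A_2544 replicates 1 to 5. Replicate 3, poor in neuronal transcripts, lay below every PBS library, while the other 4 treated libraries lay above them. Cacnb1, a beta subunit, had a log2 difference of 0.39 (SE 0.22), Cacna2d2, another alpha2delta subunit, 0.31 (SE 0.24), and the pore genes Cacna1a (Cav2.1), Cacna1b (Cav2.2) and Cacna1i (Cav3.3) 0.43 (SE 0.26), 0.38 (SE 0.32) and 0.41 (SE 0.37). All 5 had an edgeR adjusted p of 0.963.

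**Figure D4:**
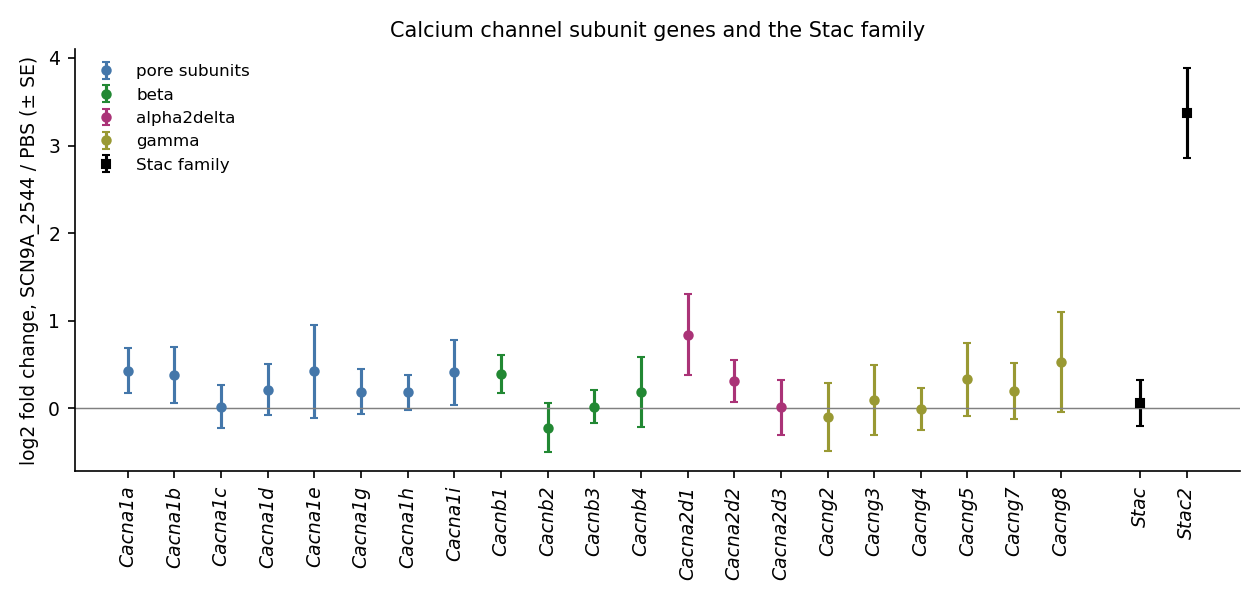
Log2 fold change of SCN9A_2544 over PBS with its standard error for the 21 tested calcium channel subunit genes, coloured by subunit class, and for Stac and Stac2 (black squares). The channel genes lie between -0.22 and 0.84, Stac at 0.06 and Stac2 at 3.37.

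Genes that regulate these channels or handle calcium inside the cell gave no call either. Over all tested genes edgeR called 0 and DESeq2 0.079%, with 4.23% at an unadjusted edgeR p under 0.05 and a median of 0.02. Of 21 regulators 19 had a row and were tested, and 0 were called, with 0 at an unadjusted p under 0.05 and a median of 0.03. The smallest p-values belonged to Rrad and Rem1, small GTPases that inhibit calcium channels, both at -0.73 (SE 0.40 and 0.42), the kinase gene Camk2d at 0.20 (SE 0.13) and the calmodulin gene Calm2 at -0.24 (SE 0.20). Of 20 genes of calcium stores and release 16 were tested, 0 were called and 0 had an unadjusted p under 0.05, with a median of 0.11. Stim1, the store sensor, lay at 0.18 (SE 0.14), the store-operated channel genes Orai1 and Orai3 at 0.20 (SE 0.16) and 0.13 (SE 0.12), and the calcium pump gene Atp2a3 at -0.15 (SE 0.16).

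The muscle coupling machinery in which Stac3 works had 8 of its 12 genes tested, with a median of 0.0. By edgeR 0 were called, as over all tested genes. Asph, Cacna2d1, Cacnb1 and Trdn had the smallest p. The triadin gene Trdn lay at -1.02 (SE 0.60) and Asph at -0.28 (SE 0.13). For Asph all treated libraries lay below all PBS libraries, at 61.8 to 89.5 against 91.7 to 112 CPM. Over all tested genes 0.211% did so.

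Genes known to be induced in sensory neurons by nerve injury lay mostly above 0, like Stac2. Of 25 such genes 20 were tested, and 19 lay above 0, with a median log2 difference of 0.64, against 53.4% above 0 and a median of 0.02 over all tested genes. By edgeR 0 were called, with 8 at an unadjusted p under 0.05, all higher, a mark that 4.23% of all tested genes reached and 2.5% reached as higher. The list was chosen with earlier results of these data known, so its shares are a description. DESeq2 called 1, Ecel1. The endopeptidase gene Ecel1 averaged 1.87 ± 0.67 CPM under PBS and 9.13 ± 6.05 CPM under SCN9A_2544 (SD, n = 5 each), a log2 difference of 2.28 (SE 0.46, edgeR adjusted p = 0.812). The other 3 of smallest p were the transcription factor gene Jun at 0.74 (SE 0.18), the neuropeptide gene Npy at 3.59 (SE 0.94) and the semaphorin gene Sema6a at 0.83 (SE 0.22), each with an edgeR adjusted p of 0.963.

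Library by library, Stac2 sided with some of these genes and not with others. From the highest to the lowest treated library the order for Stac2 was replicate 4, 3, 1, 5 and 2. Atf3, an injury-induced transcription factor gene, and Gadd45a, a stress response gene, had the order 4, 3, 5, 1 and 2. Atf3 held 31.9, 14.0, 74.6, 89.5 and 32.1 CPM in SCN9A_2544 replicates 1 to 5 and 9.40 to 36.6 CPM in PBS. Jun was highest in replicate 3, at 289 CPM, and lowest in replicate 2, at 149 CPM.

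The neuropeptide genes Npy and Gal and the transcription factor gene Sox11 were lowest in replicate 3, where Stac2 was second highest. Npy held 35.4, 4.56, 1.97, 98.5 and 14.7 CPM in SCN9A_2544 replicates 1 to 5 and 0.667 to 4.36 CPM in PBS. Gal held 7.36, 2.65, 1.63, 60.6 and 10.8 CPM in the treated libraries and 1.12 to 2.56 CPM in PBS. In replicate 3 Npy, Gal and Sox11 (3.34 CPM) lay within their PBS ranges, while Stac2, at 14.7 CPM, lay above its own. Ecel1 was lowest there too among treated libraries, but at 3.81 CPM lay above its PBS maximum of 2.54 CPM. Sema6a (26.9 CPM, PBS maximum 24.4 CPM), Atf3, Gadd45a and Jun also lay above their PBS ranges in replicate 3. That library is the poorest in neuronal transcripts, and the part of this in these values was not tested. Atf3, Gadd45a, Gal and Sox11 are named here after their values were seen, as the members of the list with an unadjusted p under 0.05 beyond the first 4.

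**Figure D5:**
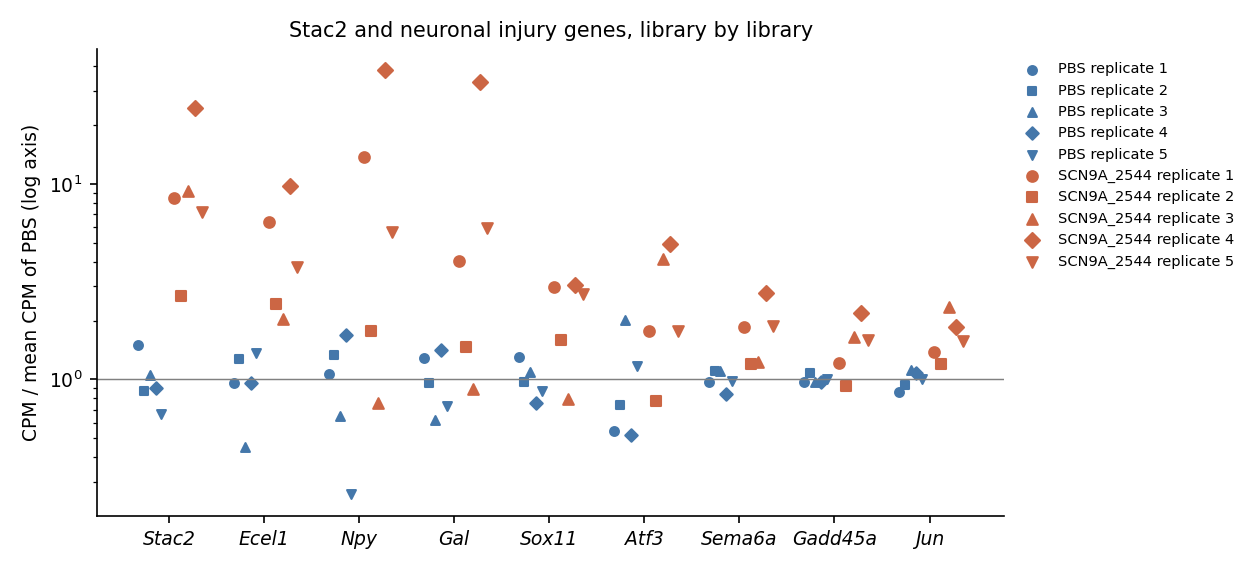
CPM of Stac2 and of the 8 neuronal injury genes with an unadjusted p under 0.05, divided by the mean CPM of the PBS libraries, on a log axis, with 1 point per library (PBS blue, SCN9A_2544 orange, a marker shape for each replicate). Replicate 4 is the highest treated library for Stac2 and for all of these genes but Jun, and replicate 3 is second for Stac2 and last for Ecel1, Npy, Gal and Sox11.

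Scn9a, the target of the siRNA, had yet another order. It held 103, 83.8, 44.6, 97.4 and 97.7 CPM in SCN9A_2544 replicates 1 to 5, a 2.32-fold range. Replicate 3, lowest for Scn9a, was second highest for Stac2. It was also the poorest in neuronal transcripts, with a pan-neuronal mean of 7.98 log2 CPM against 9.05 to 9.34 in other treated libraries. These Scn9a levels are not scaled to neuronal content.

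Over all 10 libraries the patterns most like that of Stac2 belonged to Ctss (r = 0.92), Sema6a (0.89), C1qa (0.89), Tgm1 (0.88), Lilrb4 (0.88) and Gadd45a (0.88). These r values include the difference between the groups, from which Stac2 was chosen, and are a description. Ctss, the lysosomal protease cathepsin S, averaged 21.6 ± 3.25 CPM under PBS and 40.0 ± 12.2 CPM under SCN9A_2544, and C1qa, a chain of complement C1q made by macrophages, at 28.8 ± 5.74 and 58.8 ± 15.4 CPM (SD, n = 5 each). With deviations from the group means in place of levels, the first 6 were Lsm6, Mapre1, Cd53, Gadd45a, Casp8 and Tex30, with r between 0.83 and 0.85. Gadd45a was the only gene in both sets of 6, with r = 0.84 for deviations, while Sema6a, Ctss, Tgm1, C1qa and Lilrb4 had 0.72, 0.70, 0.59, 0.51 and 0.45.

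Macrophage markers also lay mostly above 0. All 15 were tested and 0 were at zero in all libraries, their summed level being 345 to 646 CPM for PBS and 453 to 856 CPM for SCN9A_2544. Of the 15, 14 lay above 0, against 53.4% of all tested genes, with a median log2 difference of 0.41. By edgeR 0 were called, with 7 at an unadjusted p under 0.05, all higher, against 2.5% of all tested genes, and C1qa was among the 12 genes DESeq2 called. This list too was chosen with earlier results of these data known, so its shares are a description. C1qa, C1qc, C1qb and the fractalkine receptor gene Cx3cr1 lay at 1.03 (SE 0.20), 0.96 (SE 0.22), 0.99 (SE 0.23) and 0.91 (SE 0.26). The mean log2 CPM over the list averaged 3.93 ± 0.24 for PBS against 4.44 ± 0.38 for SCN9A_2544 (SD, n = 5 each). It was highest in SCN9A_2544 replicates 4 and 3, at 4.96 and 4.74, the libraries that were also highest for Stac2.

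Satellite glia, the cells that wrap the neurons, had 7 of 12 tested markers above 0 and 5 below, near the 53.4% above 0 over all tested genes, with a median of 0.29. By edgeR 0 were called, with 3 at an unadjusted p under 0.05, all higher, against 4.23% of all tested genes, and 2.5% as higher. The 3 were the endothelin receptor gene Ednrb at 1.07 (SE 0.31), Ptprz1 at 0.42 (SE 0.18) and the potassium channel gene Kcnj10 at 0.49 (SE 0.21). The next by p, the calcium-binding protein gene S100b, lay below 0, at -0.52 (SE 0.24). The mean log2 CPM over the list ran from 6.72 to 6.92 in PBS and from 6.94 to 7.04 in treated libraries. As with the other lists, it was chosen with earlier results of these data known. The part of macrophages and satellite glia in the Stac2 difference was not tested.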

How the data were processed

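Bulk RNA sequencing libraries were made from poly(A) RNA with the NEBNext Ultra II kit and sequenced as paired reads of 150 bases, per the labels' protocols. Estimated counts for each gene and library were deposited by the authors without normalization, and 11.6% to 12.4% of the entries of a library were not whole (tolerance 1e-09). Per the submitters' processing notes, mRatBN7.2 was the build, and STAR 2.7.10a and DESeq2 1.44.0 are listed without a role. No source used here gives the counting program, annotation or strand setting, so reads of overlapping or antisense genes may be included.

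Estimated counts were rounded to whole numbers. Genes were filtered with filterByExpr (minimum count 10, minimum total 15), scaled with TMM and fitted in edgeR 4.0.16 (R 4.3.3) by group over all 10 libraries. P-values were adjusted by Benjamini-Hochberg over all 15186 tested genes, with a threshold of 0.05. The standard error is the log2 fold change divided by the square root of F. DESeq2 1.42.0 and limma 3.58.1 were alternatives, on the same filtered genes. For log2 CPM the prior count was 2. The median standard error was 0.22 and the biological coefficient of variation 30.0%. The fit was tested on simulated data, with 50 genes changed at each fold. It called 4% of those changed 1.5-fold, 38% at 2-fold, 74% at 3-fold and 90% at 4-fold. A list with 0 genes called may thus hold changes that the test missed. The fit of the 10 libraries called 0 genes, and Stac2, at a ratio of means of 10.4, was not called. Whether the shares called in the simulated data hold for the 10 libraries was not tested.

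Correlations used 100000 permutations for 10 libraries and all permutations for fewer. A planned correlation of Stac3 was left out because it had 17 counts. The members and gene lists were chosen with earlier results of these data known. Genes named from a list are its 4 tested members of smallest p, or for calcium channels Cacna1c, Cacna1d, Cacna1s and the 6 others of smallest p. Ckm, Acta1, Cacna1f and 4 injury genes were added after their values were seen. Likeness takes the 6 genes of highest r. The alternatives were other scalings, no filter, DESeq2, limma voom, a replicate block, a pan-neuronal covariate, each library left out and, chosen after seeing the data, the 3 neuron-poor libraries left out. Replicate numbers were checked as pairs, but 5 pairs are too few to settle whether the libraries are paired. The main fit used no pairing. Promoter sequences are RefSeq's, on GRCr8, a different build from that of the counts, and lists of neighbouring genes come from the same assembly.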

Additional observations from a re-analysis of the deposited data

Results flagged for a closer look

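Of 60 groups of 5 libraries checked for a single library far from the others, 7 held one, where chance gives about 5%, and in all 7 it was SCN9A_2544 replicate 3. This library had the lowest treated value, in log2 CPM, for Scn9a (5.48), for the calcium channel genes Cacna2d1 (2.43), Cacnb1 (4.74), Cacna2d2 (5.18) and Cacna1b (6.02), and for the pan-neuronal mean (7.98), and the highest endothelial mean (4.42). Neither Stac nor Stac2 had such a library in either group. Without it the log2 difference was 0.18 (SE 0.23) for Stac and 3.38 (SE 0.54) for Stac2.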

How the results depend on the processing

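The log2 difference of Stac2 lay between 2.75 and 3.62 in 18 alternatives, 2.78 to 3.62 with 1 library left out, and above 0 in each. It was 3.08 with the replicate number as a block. Stac lay between -0.08 and 0.30, and its sign turned in 4 of 18. Stac3 had no fitted value. The block called 0 genes, as did the fit without it; same-numbered libraries had r above 0.1 in 2 of 5 pairs, and 2 of 5 PBS libraries correlated best with their own number. The count of calls over all genes, 0, became 12 with DESeq2, 1 with limma voom, 1 with the pan-neuronal covariate (Scn9a) and 1 without the 3 neuron-poor libraries, and 0 to 1 with 1 library left out (1 without SCN9A_2544 replicate 2 or replicate 3). Injury genes called became 1 with DESeq2. Counts for calcium channel, regulator, store and coupling genes were 0 in all 18.

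The cause of these shifts was not tested. The adjusted permutation call of a Stac correlation was lost without the 2 farthest libraries for pan-neuronal (0.80), identity (0.65), non-peptidergic (0.71), Schwann (-0.78), endothelial (-0.78) and fibroblast (-0.44) lists. Without the 3 neuron-poor libraries it was lost for the same lists and for peptidergic markers (0.49, 0.19, 0.72, -0.54, -0.79, -0.66 and 0.46 in that order, peptidergic last), and the large-diameter value turned to -0.20. DESeq2's size factors ended the fibroblast call (-0.68). With 1 library left out, r ran from 0.71 to 0.94 for peptidergic (the call ending without SCN9A_2544 replicate 3), from -0.86 to -0.57 for fibroblast (ending in 6 of 10), from -0.83 to -0.48 for central glia (gained without SCN9A_2544 replicate 4 or 5) and from -0.47 to 0.07 for macrophage markers (0.07 without SCN9A_2544 replicate 3). Of 69 named context genes, 9 turned sign in at least 1 alternative, among them Cacna1c. With 5 libraries a group and Stac2 at 16 to 35 counts in PBS, its PBS level is imprecise.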

Other observations

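The genes on either side of Stac2 had smaller log2 differences than its 3.37. The 3 protein-coding genes before it in the RefSeq gene order, Arl5c, Cacnb1 and Rpl19, had log2 differences of 0.68 (SE 0.82), 0.39 (SE 0.22) and -0.12 (SE 0.13), and the 3 after it, Fbxl20, Med1 and Cdk12, had 0.24 (SE 0.15), -0.04 (SE 0.16) and 0.14 (SE 0.16). The groups overlapped for all 6. Over all tested genes, 0.454% had every treated library above every PBS library and 0.211% had every one below. Adjusted p-values of the 6 by edgeR ran from 0.963 to 0.991, and edgeR called 0 of all tested genes. Cacnb1, a calcium channel beta subunit gene, lies 2 places before Stac2. Of its 5 treated libraries, 4 lay above every PBS library and 1 below every one. These neighbours were picked after the values of the members were seen.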
